A study of Mus musculus and Homo sapiens with 12 samples.

Results

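The genes of the peroxisome proliferator-activated receptors (PPARs) and of fatty acid use examined here were the receptors PPARA, PPARD and PPARG, the coactivator PPARGC1A, and the target and effector genes CPT1A, ANGPTL4, ACSL1, FABP1 and CD36. The 9 genes were chosen by name, out of 62663 human genes of the GENCODE annotation and 49943 mouse genes of the RefSeq table, and all 9 were found in both species. For each gene, the peaks of 12 CUT&Tag libraries that overlapped the gene or the 10 kb on either side were taken and merged into regions. CUT&Tag cuts and tags DNA next to an antibody, here against butyrylated (bu) or acetylated (ac) lysine 18 of histone H3 (H3K18) or lysine 12 of histone H4 (H4K12). The 4 human libraries came from CCD841, a line of normal colon epithelial cells given 1 mM NaBu (sodium butyrate) for 12 to 16 h, with 2 libraries each of H3K18bu and H4K12bu and none from cells without butyrate. The 8 mouse libraries came from large intestine of male CETP-ApoB-100 transgenic mice, which carry human genes of lipid transport, fed high fat and high sucrose. By the labels the H3K18bu and H4K12bu libraries, 2 each, came from mice that also ate 5% arabinoxylan, a dietary fibre, and the H3K18ac and H4K12ac libraries, 2 each, from mice without it, so that diet and acyl group cannot be told apart. The study used 2 mice per condition, libraries of different marks may therefore share an animal, and neither ages nor an untreated control belong to the labels used here.

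PPARs are nuclear receptors that bind fatty acids and their derivatives, pair with the retinoid X receptor and sit on DNA at direct repeats of a short half-site. PPARA drives fatty acid oxidation, PPARD is the most widely expressed form and is prominent in gut epithelium, and PPARG, the regulator of fat cell formation, is also active in the colon. Colon cells burn butyrate as a main fuel, and butyryl groups on histones derive from the same metabolite pool.

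Sequences are shown for 4 promoters that carried a region in both replicates of a mark, and for a CD36 and a PPARA region that held a near match of the PPAR repeat. In the promoters, the 250 bases before the start site are printed on the coding strand, and capitals mark the half-site AGGTCA, the GC box GGGCGG and the CCAAT box on either strand. PPARD was the one human promoter of the 9 with both butyryl marks, a state shared by 9.51% of 20033 protein-coding promoters. The human PPARGC1A promoter, which carried H3K18bu alone, is not printed, since its window overlaps annotated exons. The mouse promoters come from RefSeq (GRCm38.p6), which gave 11 promoters for 8 of the genes and none for Angptl4. They are those of Pparg at its first start (H3K18ac and H4K12ac) and at its next start (H3K18bu), and of Cpt1a (H4K12bu and H4K12ac). The Acsl1 promoter, which carried all 4 marks, is described without its letters.
PPARD, GRCh38 chr6:35342308-35342557, plus strand: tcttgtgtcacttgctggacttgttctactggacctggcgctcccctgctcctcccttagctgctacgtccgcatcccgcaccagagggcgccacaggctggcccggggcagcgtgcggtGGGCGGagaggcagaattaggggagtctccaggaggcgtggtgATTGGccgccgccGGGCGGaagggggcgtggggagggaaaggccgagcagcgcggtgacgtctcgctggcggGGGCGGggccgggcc
Pparg, GRCm38 chr6:115360894-115361143, plus strand: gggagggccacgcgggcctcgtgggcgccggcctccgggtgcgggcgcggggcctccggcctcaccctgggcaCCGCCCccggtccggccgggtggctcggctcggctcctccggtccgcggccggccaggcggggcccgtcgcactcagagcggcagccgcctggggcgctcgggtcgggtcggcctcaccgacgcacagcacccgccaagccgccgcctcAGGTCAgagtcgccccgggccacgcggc
Pparg, GRCm38 chr6:115362099-115362348, plus strand: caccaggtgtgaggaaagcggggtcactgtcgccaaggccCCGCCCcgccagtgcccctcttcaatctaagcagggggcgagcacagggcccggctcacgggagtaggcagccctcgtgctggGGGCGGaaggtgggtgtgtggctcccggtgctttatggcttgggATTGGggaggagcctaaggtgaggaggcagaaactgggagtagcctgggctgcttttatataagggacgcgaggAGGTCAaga
Cpt1a, GRCm38 chr19:3323051-3323300, plus strand: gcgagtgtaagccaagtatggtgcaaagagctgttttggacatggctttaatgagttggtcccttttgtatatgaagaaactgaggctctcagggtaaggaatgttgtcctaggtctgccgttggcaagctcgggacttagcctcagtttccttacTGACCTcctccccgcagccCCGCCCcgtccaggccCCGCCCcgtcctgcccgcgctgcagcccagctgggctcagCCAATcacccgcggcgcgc

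The GC box was present 3 times before PPARD and 4 times before Acsl1, beside a share of 59.01% of human and 32.7% of mouse promoters with at least 1. The half-site was absent from both of these windows and was present once in each printed Pparg window and once before Cpt1a, against 14.02% of 32851 mouse promoters with at least 1. Both motifs also lay in promoter windows without a region in both replicates. There the half-site was present 2 times before Fabp1 and 1 time each before Cd36, human FABP1 and human PPARG. The GC box was present 6 times each before PPARA and human ACSL1 and 3 times before Ppard. Neither motif was present before human CD36, mouse Ppargc1a, or the last mouse starts of Pparg and Acsl1. The motifs were thus not particular to promoters with a region. A search of the 99 human regions found in both replicates for AGGTCANAGGTCA, with up to 2 of the 12 fixed letters differing, gave near matches in 5 regions, of which 4 lay at CD36 and 1 at PPARA. All had 2 differing letters, and the 2 other CD36 places, in weaker H3K18bu regions, are not printed. The CD36 match below lay inside the strongest H3K18bu region of that gene and inside its H4K12bu region, and the PPARA match inside an intronic H4K12bu region. Both stretches are intronic, and capitals mark the 13-base match.
CD36, GRCh38 chr7:80564038-80564337, plus strand: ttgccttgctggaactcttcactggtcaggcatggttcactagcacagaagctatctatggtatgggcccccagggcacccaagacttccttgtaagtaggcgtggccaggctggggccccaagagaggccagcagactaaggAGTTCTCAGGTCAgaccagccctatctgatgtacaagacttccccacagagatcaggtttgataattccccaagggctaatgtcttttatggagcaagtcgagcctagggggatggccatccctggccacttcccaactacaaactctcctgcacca
PPARA, GRCh38 chr22:46201575-46201874, plus strand: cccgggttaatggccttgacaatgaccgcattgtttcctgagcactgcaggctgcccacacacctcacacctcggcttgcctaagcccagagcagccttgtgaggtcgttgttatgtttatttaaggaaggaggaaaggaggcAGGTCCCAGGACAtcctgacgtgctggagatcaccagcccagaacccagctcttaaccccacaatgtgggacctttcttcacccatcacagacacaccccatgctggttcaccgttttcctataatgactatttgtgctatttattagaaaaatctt

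In 300-base windows at the middle of the regions, such near matches were present in 2 of 55 H3K18bu windows of the 9 genes and 2 of 44 H4K12bu windows, beside 4.57% and 4.44% of all windows of these marks. The matches describe letters in the window and were not tested as binding sites.

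In CCD841 cells, 8 of the 9 genes had at least 1 H3K18bu region in both replicates and 7 had an H4K12bu region. Among protein-coding genes these shares were 75.8% and 76.6%, so the presence of a region did not set the 9 genes apart. The 8 genes held 55 H3K18bu regions, of which 8 lay within 1 kb of an annotated start site, 5 on exons, 36 in introns and 6 in the flanks. The 44 H4K12bu regions divided into 6, 7, 26 and 5 in the same order. Per 100 kb of window the 9 genes had 4.82 H3K18bu regions against 4.76 over all protein-coding genes, and 3.85 H4K12bu regions against 5.11. All 55 H3K18bu regions and 33 of the 44 H4K12bu regions had q below 0.05 in both replicates.

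**Figure D1:**
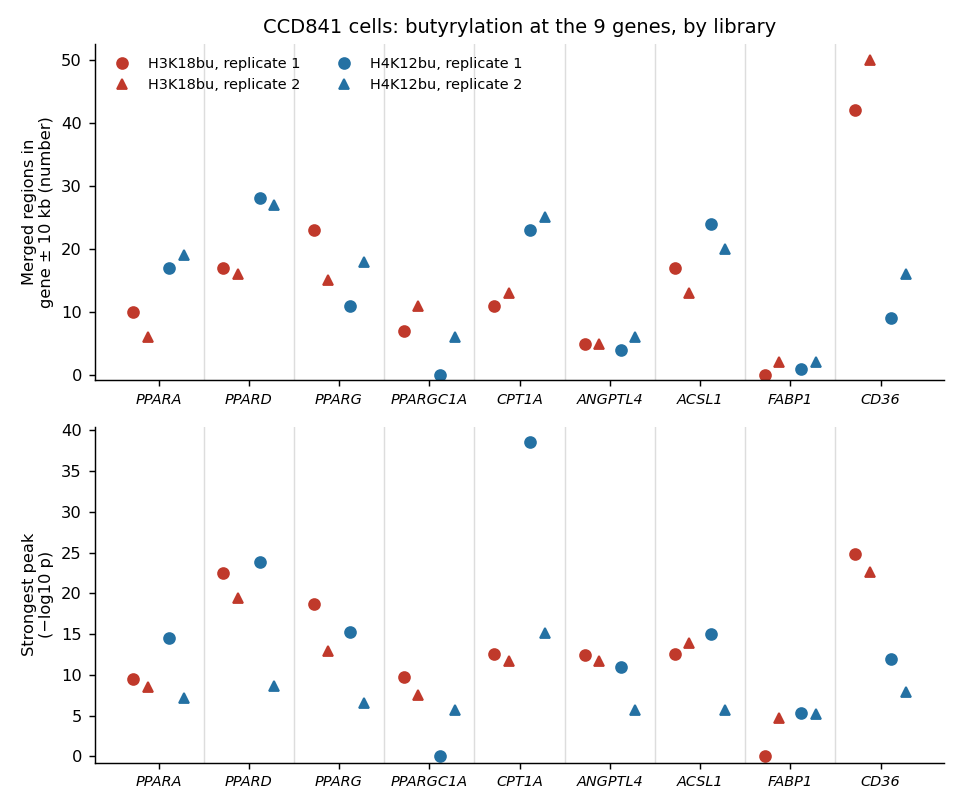
Merged regions per library within each gene and 10 kb on either side (upper panel, number) and the −log10 p of its strongest peak (lower panel) in CCD841 cells. Each point is 1 library, colour gives the mark, shape gives the replicate, and 0 stands for no peak. CD36 had 42 and 50 H3K18bu regions against 9 and 16 H4K12bu regions, and CPT1A had the strongest H4K12bu peaks.

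The genes were also sorted by which mark had more regions. In regions per library, CD36 and PPARGC1A had more H3K18bu than H4K12bu regions in every library, which held for 16.0% of 20033 protein-coding genes. PPARA, PPARD, CPT1A and ACSL1 had more H4K12bu regions in every library, which held for 43.6%. These 2 and 4 of 9 genes were near the shares of all genes and are given as a description. PPARG, ANGPTL4 and FABP1 overlapped between the marks. With 2 libraries against 2 an exact test cannot go below p = 0.3333, so no test was made. Without H4K12bu replicate 2, 4 genes had more H3K18bu regions, beside 25.8% of protein-coding genes. Where only peaks with q below 0.05 were kept, 4 genes had more H3K18bu and 2 more H4K12bu regions, beside 23.4% and 29.1% of protein-coding genes. Only 54.8% of the regions of H4K12bu replicate 2, the library with the lowest median pileup, had such a q, against all regions of the other 3 libraries.

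Of the receptors, PPARA had 10 and 6 H3K18bu regions in replicates 1 and 2 and 17 and 19 H4K12bu regions. Both H4K12bu libraries were above both H3K18bu libraries. PPARA had 3 H3K18bu and 8 H4K12bu regions in both replicates, and 2 places carried both marks, an internal start site at chr22:46171079-46172387 and an intron at chr22:46196074-46196827. The strongest H4K12bu region, chr22:46161879-46162686, 11.8 kb into the gene, reached −log10 p of 14.5 and 6.60. No region in both replicates lay within 1 kb of the main (Ensembl canonical) start site of PPARA.

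PPARD had 17 and 16 H3K18bu regions and 28 and 27 H4K12bu regions, without overlap between the marks. It had 7 H3K18bu and 12 H4K12bu regions in both replicates, and both marks met at the start site, in an intron, at the 3′ end and in the 3′ flank. The start site was covered at chr6:35342317-35342626 for H3K18bu (−log10 p of 12.6 and 6.04) and at chr6:35342318-35342602 for H4K12bu (6.61 and 3.64). In the intron, 27.9 kb into the gene, H3K18bu reached 11.9 and 19.4 and H4K12bu 15.7 and 3.32. In the flank, at chr6:35435417-35436299, H3K18bu had −log10 p of 22.6 and 9.15.

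PPARG had 23 and 15 H3K18bu regions and 11 and 18 H4K12bu regions, and the marks overlapped. Of its 10 regions in both replicates 7 were H3K18bu. These included one before the start site, chr3:12287859-12288794 (−log10 p of 7.63 and 8.54), where neither H4K12bu library had a peak. The strongest in replicate 2 lay over an internal start site 116.9 kb into the gene, chr3:12405743-12406257, at 13.6 and 12.9, without H4K12bu in both replicates. The strongest in replicate 1, chr3:12356759-12357535, lay 68.1 kb into the gene in an intron, with H3K18bu values of 18.7 and 12.0, and carried H4K12bu in both replicates at 7.03 and 4.73.

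PPARGC1A encodes PGC-1α, a coactivator of PPARs and of mitochondrial genes. It had 7 and 11 H3K18bu regions and 0 and 6 H4K12bu regions. The H3K18bu libraries were both higher, by 1 region at the nearest pair. Only 2 H3K18bu regions were in both replicates, one over the main start site at chr4:23889855-23890220 (−log10 p of 9.68 and 6.09) and one on an exon 76.8 kb downstream, and no H4K12bu region was. Its strongest peak ranked at the 59.9th and 55.0th percentile of all genes for H3K18bu, and at the 14.9th, the level of genes without a peak, and the 63.0th for H4K12bu.

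CPT1A, which encodes the gatekeeper of fatty acid entry into mitochondria, had 11 and 13 H3K18bu regions and 23 and 25 H4K12bu regions. Both H4K12bu libraries were above both H3K18bu libraries. In both replicates there were 3 H3K18bu and 11 H4K12bu regions, the latter spread from 11.7 to 81.8 kb into the gene. The strongest H4K12bu region, in an intron at chr11:68782668-68784171, reached −log10 p of 38.5 and 15.1 with 74 and 27 overlapping reads at its top. This placed CPT1A at the 99.4th and 99.1st percentile of all genes for H4K12bu, against the 73.2nd and 78.7th for H3K18bu, which also had a region there (10.2 and 11.7). The main promoter of CPT1A held no region in both replicates of either mark.

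ACSL1, a long-chain acyl-CoA synthetase that activates fatty acids, had 17 and 13 H3K18bu regions and 24 and 20 H4K12bu regions. The marks did not overlap in regions per library, but in both replicates the numbers were close, 7 and 6. Both marks were found at chr4:184815401-184815617, an internal start site 10.5 kb downstream of the main one, and at chr4:184762199-184762650, 63.5 kb into the gene.

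ANGPTL4, a secreted inhibitor of lipoprotein lipase and a classic PPAR target, had 5 and 5 H3K18bu regions and 4 and 6 H4K12bu regions in a gene of 11.1 kb. The 3 H3K18bu regions in both replicates lay at −8.25 kb from the main start, at −1.92 kb near an alternative start site (chr19:8361929-8362547, −log10 p of 12.5 and 9.82), and 3.36 kb into the gene in an intron (chr19:8367119-8367914, 10.9 and 9.17). The 2 H4K12bu regions in both replicates lay only in the flanks.

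FABP1, the liver fatty acid-binding protein that is also made in gut epithelium, was the one gene with no region in both replicates. It had 0 and 2 H3K18bu and 1 and 2 H4K12bu regions, and it ranked at the 15.2nd and 29.8th percentile by H3K18bu and the 30.9th and 53.6th by H4K12bu.

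CD36, a fatty acid translocase of the plasma membrane, differed most between the marks in the number of regions. H3K18bu gave 42 and 50 regions and H4K12bu 9 and 16, and the libraries of the marks were far from overlapping. In both replicates there were 23 H3K18bu and 2 H4K12bu regions, a share of H3K18bu of 92.0% (95% exact binomial interval 74.0 to 99.0%, which covers counting error only). Among the 5108 protein-coding genes with at least 10 such regions the median share was 46.7% and the 5th and 95th percentiles were 16.7% and 80.0%, and 99.2% of them had a lower share than CD36. By the same measure 14.4% had a lower share than PPARA, 30.1% than PPARD, 87.2% than PPARG, 9.495% than CPT1A and 65.3% than ACSL1.

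The position of the CD36 regions was as uneven as their mark. GENCODE extends CD36 over 309.7 kb, through alternative first exons far before the main start site at chr7:80638642. Of the 23 H3K18bu regions 21 lay in introns before that start, from −266.0 to −26.9 kb, and 2 lay after the 3′ end. No region in both replicates fell between the main start site and the 3′ end. The strongest, chr7:80563460-80565674, at −74.1 kb, reached −log10 p of 24.8 and 22.6, with 38 and 31 overlapping reads at the top. It overlapped the stronger of the 2 H4K12bu regions, at 12.0 and 7.91. The GNAT3 gene lies inside this stretch and held 3 of the 23 regions.

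**Figure D2:**
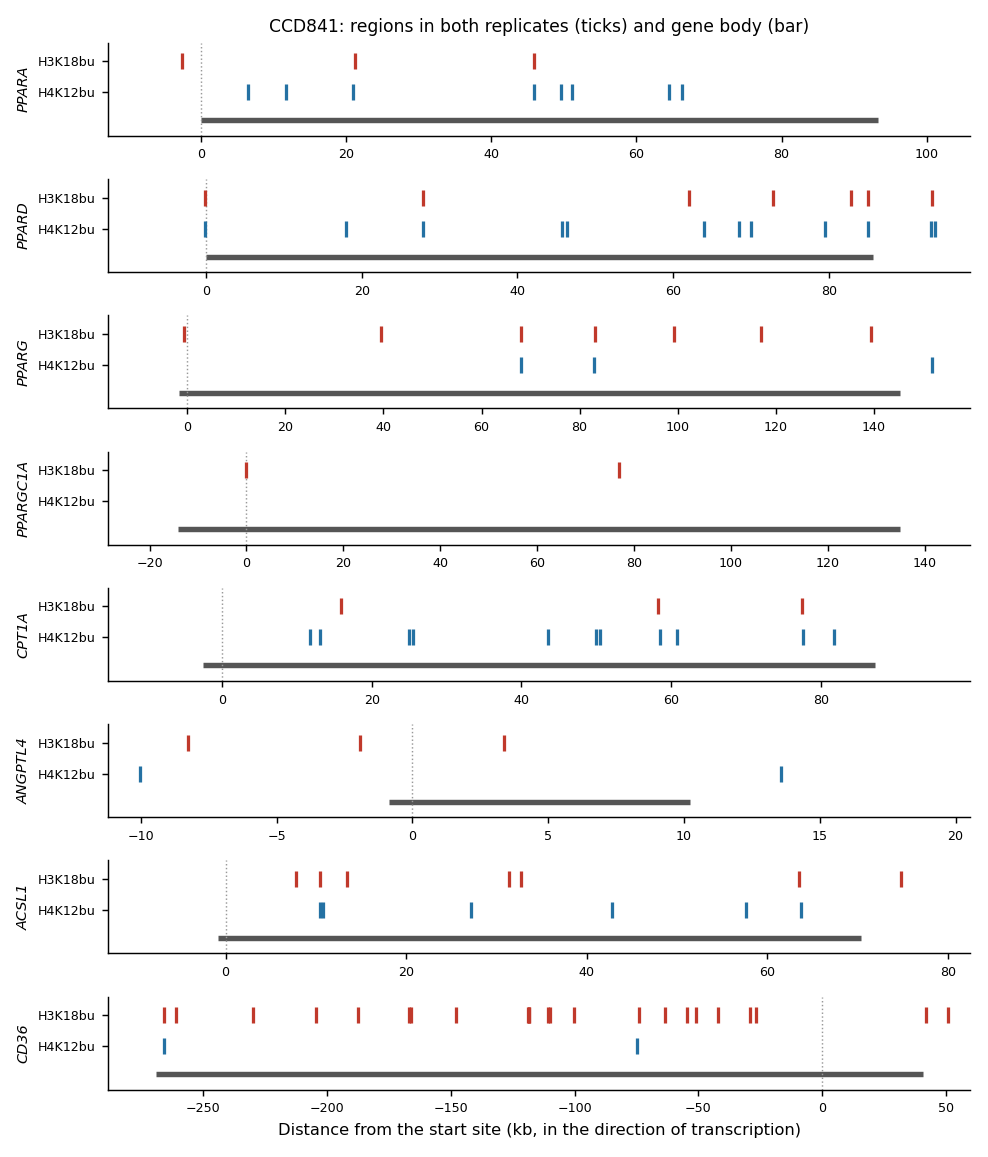
Position of each region found in both replicates (ticks, plotted at the middle of the region) relative to the main start site of the gene, in kb in the direction of transcription, for H3K18bu and H4K12bu in CCD841 cells. The grey bar is the annotated gene. FABP1 had no such region and is not drawn. The 21 upstream H3K18bu regions of CD36 and the 11 H4K12bu regions of CPT1A stand out.

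The marks shared some of their places. Of the 55 H3K18bu regions 14 (25.5%) overlapped an H4K12bu region in both replicates, against 34.4% of all 108536 H3K18bu regions. Of the 44 H4K12bu regions 15 (34.1%) overlapped H3K18bu, against 41.8% of all 90476. The median GC content of the 300-base windows was 51.3% for H3K18bu regions of the 9 genes, the same as over all H3K18bu regions, and 55.7% for H4K12bu, against 52.3% over all. The H3K18bu regions of CD36 had a median of 44% and the H4K12bu regions of CPT1A of 56.7%. The replicates overlapped in part. Of 132 H3K18bu regions in replicate 1 at the 9 genes 44.7% overlapped replicate 2, and of 117 H4K12bu regions 39.3% did.

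In the mouse large intestine, signal was far thinner and the butyryl and acetyl lists differed in size. The H3K18bu and H4K12bu lists held 50675 to 96432 peaks, of which 89.2 to 91.4% rested on 1 overlapping read at the top, while the 4 acetyl lists were filled to between 299623 and 299861 peaks. The share on 1 read was 72.1% and 52.0% in the H3K18ac lists and 52.8% and 12.8% in the H4K12ac lists. Regions in both replicates were found at 6 of the 9 genes for H3K18bu, 7 for H4K12bu, 7 for H3K18ac and 7 for H4K12ac, against 20.5%, 33.7%, 58.7% and 61.4% of protein-coding genes. They numbered 14, 14, 43 and 20. Per 100 kb of window the numbers were 1.03 and 1.03 for the butyryl marks, against 0.488 and 0.764 over all protein-coding genes, and 3.16 and 1.47 for the acetyl marks, against 2.33 and 2.37. The acetyl values over all genes include peaks tied at the lowest −log10 p that 3 of the 4 lists hold on a few chromosomes and on none of those of the 9 genes, so the acetyl numbers of the 9 genes and of all genes are not on the same footing. Among the butyryl regions 12 of 14 and 10 of 14 rested on a single read in at least 1 replicate, and none had q below 0.05 in both. For H3K18ac and H4K12ac 10 of 43 and 2 of 20 regions did. When every mouse list was shortened to equal length by peak strength, 11 H3K18bu, 8 H4K12bu, 15 H3K18ac and 2 H4K12ac regions were in both replicates, and with at least 2 overlapping reads in every list 2 H3K18bu and 4 H4K12bu regions were left.

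**Figure D3:**
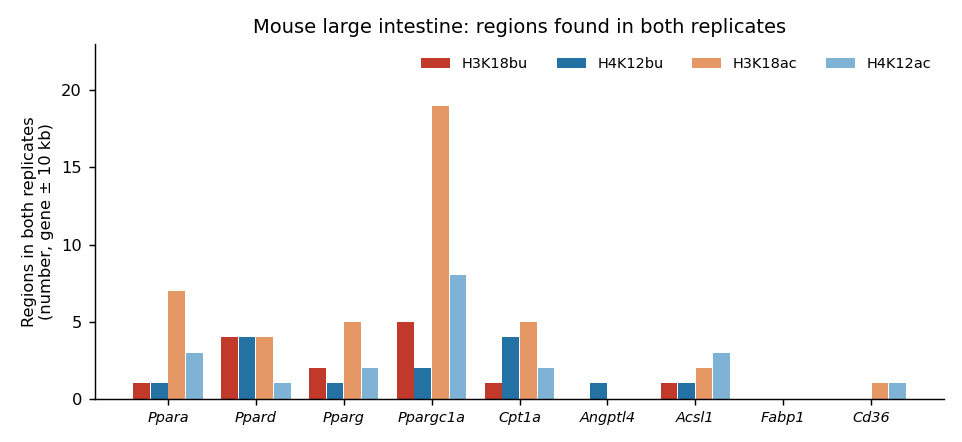
Number of regions found in both replicates within each mouse gene and 10 kb on either side, for the 4 marks. Bars start at 0 and there is 1 bar per gene and mark. Ppargc1a, the longest gene, had 19 H3K18ac regions, some of them resting on 1 read in replicate 1, and Fabp1 had none of any mark.

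The receptors were marked at different places. Ppara had 6 and 5 H3K18bu regions, 7 and 10 H4K12bu, 21 and 19 H3K18ac, and 8 and 23 H4K12ac regions per library. All 4 marks had a region in both replicates there, and a place inside the gene near chr15:85769050-85769388, 33.4 kb into the gene, carried H3K18bu, H3K18ac and H4K12ac in both replicates. The H4K12bu region of Ppara, chr15:85811604-85811988, lay 76.0 kb from the start, partly in the neighbouring gene Cdpf1. Ppard had 15 and 8 H3K18bu, 13 and 17 H4K12bu, 10 and 23 H3K18ac and 7 and 15 H4K12ac regions. It had the most butyryl regions in both replicates of the receptors, 4 of each mark, and 2 places inside the gene, chr17:28280002-28280556 and chr17:28287755-28287989, were shared by the butyryl marks. The first of these held 3 overlapping reads at the top of both H3K18bu libraries. Pparg had 6 and 7 H3K18bu, 8 and 6 H4K12bu, 24 and 21 H3K18ac, and 9 and 22 H4K12ac regions. Its start site, printed above, carried the acetyl regions that were strongest in the weaker replicate among the 9 genes, chr6:115360926-115361923 for H3K18ac (−log10 p of 7.56 and 13.7) and chr6:115361036-115362074 for H4K12ac (8.83 and 7.71). An H3K18bu region of 1 read per library lay over the next start, chr6:115362143-115362391.

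Ppargc1a spans 661.6 kb in the RefSeq table and had the most regions in 7 of the 8 libraries: 27 and 22 H3K18bu, 10 and 23 H4K12bu, 152 and 93 H3K18ac and 41 and 73 H4K12ac regions. In both replicates there were 5, 2, 19 and 8. Of the 152 peaks in H3K18ac replicate 1, 109 rested on 1 read. Some of the 19 H3K18ac regions rested in that replicate on 1 read tied at the lowest −log10 p of the list. The butyryl regions all lay within 44.1 kb after the RefSeq start site, while the acetyl regions reached to −545.5 kb. The stretch near chr5:51553702-51554045, 13.9 kb into the gene, carried H4K12bu, H3K18ac and H4K12ac in both replicates.

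Cpt1a and Acsl1 were marked at their start sites. At Acsl1 the region was in both replicates of all 4 marks, with 2 and 2 overlapping reads for H3K18bu (chr8:46470819-46471157), 1 and 3 for H4K12bu (chr8:46470716-46470996), 6 and 3 for H3K18ac and 2 and 3 for H4K12ac. Of 21263 promoters of protein-coding mouse genes, 175 (0.823%) overlapped a region in both replicates of all 4 marks, and Acsl1 was the only one among the 11 promoters of the 8 genes. Taken singly, H3K18bu was present at 4.29% of all promoters, H4K12bu at 11.1%, H3K18ac at 13.9% and H4K12ac at 16.0%. Acsl1 had 6 and 5 H3K18bu, 3 and 7 H4K12bu, 10 and 12 H3K18ac, and 13 and 19 H4K12ac regions per library. Cpt1a had 8 and 5, 8 and 17, 16 and 10, and 10 and 18 in the same order. H4K12bu covered its start at chr19:3323147-3323544 with 1 and 3 overlapping reads, and H4K12ac at chr19:3322933-3323643 with 2 and 5. A place at −1.46 kb from the start, chr19:3321711-3321978, carried H3K18bu, H4K12bu and H3K18ac in both replicates.

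**Figure D4:**
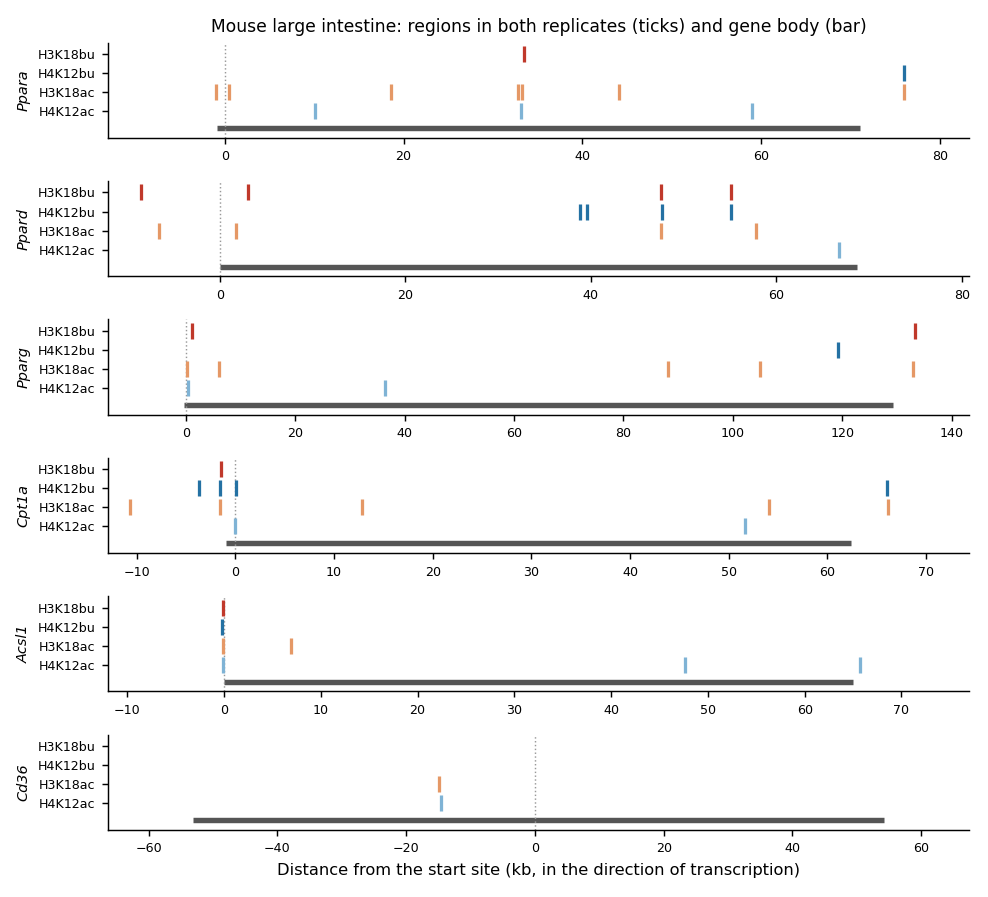
Position of regions found in both replicates (ticks, plotted at the middle of the region) relative to the RefSeq start site, in kb in the direction of transcription, for the 4 marks at 6 mouse genes. The grey bar is the gene. At Acsl1 a tick of every mark stands at the start site, and at Cd36 only the acetyl marks have a tick.

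Angptl4 had 0 and 1 H3K18bu, 3 and 2 H4K12bu, 3 and 4 H3K18ac, and 1 and 1 H4K12ac regions, with 1 H4K12bu region in both replicates at chr17:33778947-33779258. Fabp1 had no peak in any of the 4 butyryl libraries, and 4 and 2 H3K18ac and 2 and 2 H4K12ac regions, none in both replicates. Cd36 had 2 and 1 H3K18bu and 0 and 2 H4K12bu regions, all resting on 1 read, while it had 13 and 3 H3K18ac and 5 and 14 H4K12ac regions, of which 11 of the 13 in H3K18ac replicate 1 also rested on 1 read. Its H4K12ac region in both replicates, chr5:17850214-17850771, at −14.6 kb from the RefSeq start, reached −log10 p of 5.64 and 13.1. The H3K18ac region, chr5:17850707-17850826, overlapped its end with −log10 p of 2.75 and 3.77, rested in replicate 1 on 1 read tied at the lowest −log10 p of that list, and is lost without such peaks.

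Because the lists differ in size, the genes were compared by their rank within each library, as the percentile of the −log10 p of the strongest peak among all 49943 genes. The 4 butyryl (Kbu) libraries were set against the 4 acetyl (Kac) libraries by a two-sided exact permutation test over 70 assignments. Cd36 ranked lower in Kbu, at 72.9 and 76.1 for H3K18bu and 25.01 and 61.9 for H4K12bu, than in Kac, at 87.5 and 78.5 for H3K18ac and 87.4 and 99.0 for H4K12ac. The means were 58.96 ± 23.4 and 88.1 ± 8.40 (SD, n = 4), a difference of −29.1 with exact p = 0.02857, the smallest the design allows, and 0.2873 after Benjamini-Hochberg adjustment over all genes by the same exact permutation test. Lower ranks in Kbu at this p were found for 2.44% of genes and higher ranks for 7.51%, and no gene passed the adjusted threshold of 0.05, with 4967 genes at an unadjusted p below it. H4K12bu replicate 1, which had no peak at Cd36, stands at the level of all genes without one, and without this library the difference was −17.8. The rank of Cd36 lay below Kac in 4 of 4 Kbu libraries, but leaving out any library other than H3K18bu replicate 1, H3K18bu replicate 2 or H4K12bu replicate 2 raised the exact permutation p to between 0.05714 and 0.1143. Ranked by fold enrichment the difference was −24.5 with an exact permutation p of 0.08571. Ranked by regions per kb it turned to 8.33 with an exact permutation p of 0.4, and to 1.96 with p = 0.8571 where the tied acetyl peaks were also left out.

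Fabp1 had no peak in any of the 4 Kbu libraries, so its Kbu percentiles, from 18.2 to 27.6, are those shared by all genes without a peak and follow the size of the list. In Kac it stood between 26.8 and 70.9, and no test is given. The other 7 genes had exact permutation p of 0.1429 or more. Ranked by regions per kb, Ppard was higher in Kbu by 36.1 and Cpt1a by 22.8, each with an exact permutation p of 0.02857, beside 12.2% of all genes higher and 3.46% lower by that ranking. Without the tied acetyl peaks, which 3 of the 4 lists hold on none of the chromosomes of the 9 genes, these differences were 17.4 and 9.54, each with an exact permutation p of 0.08571. Pparg had 80.8 ± 16.4 in Kbu and 96.6 ± 3.68 in Kac, and Ppara, Ppard and Acsl1 had means higher in Kbu by 8.74, 15.5 and 8.51. With peaks of q below 0.05 alone the differences for Ppara, Ppard and Acsl1 turned to −35.9, −8.28 and −19.5. Ppara then had a peak in 0 of the 4 Kbu libraries, and Ppard and Acsl1 in 1 each. Those values rest mostly on the level of genes without a peak, so no test is read from them. By the strongest peak Ppargc1a was high in all libraries, between 84.6 and 98.8, but its window of 681.6 kb was the longest of the 9. Ranked by regions per kb it stood between 38.6 (H4K12ac replicate 1) and 80.4 (H3K18ac replicate 1). For Angptl4, which had no peak in H3K18bu replicate 1, Kbu minus Kac was −30.4 for H3K18 and 32.5 for H4K12, a contrast that was not tested.

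**Figure D5:**
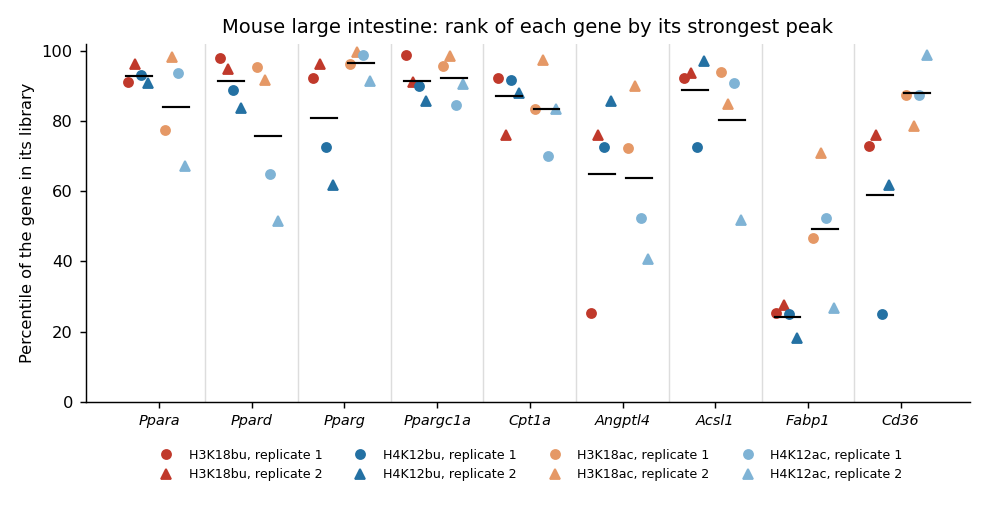
Percentile of each gene among 49943 mouse genes by the −log10 p of its strongest peak, 1 point per library, with colour for the mark, shape for the replicate, and black lines for the means of the 4 butyryl and the 4 acetyl libraries. The butyryl and acetyl means differ by −29.1 for Cd36. The 4 butyryl points of Fabp1 stand for libraries without a peak there.

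A wider list of 46 genes of PPAR partners, fatty acid oxidation, uptake and storage, and synthesis was counted in the same way in CCD841 cells. H3K18bu was in both replicates at 42 of 46 genes (216 regions) and H4K12bu at 38 (320 regions), beside 75.8% and 76.6% of protein-coding genes, which were not matched for length. More H4K12bu regions in every library were found at 29 genes, against 43.6% of protein-coding genes, and more H3K18bu regions at 5, against 16.0%. By class the former were 8 of 11 partners and coregulators, 8 of 14 oxidation genes, 6 of 13 genes of uptake and storage and 7 of 8 genes of synthesis. The share of protein-coding genes with more H4K12bu regions fell to 29.1% at q under 0.05, and the wider list was not counted at that setting. By the weaker replicate, the strongest H3K18bu peaks stood at the coactivator genes PPARGC1B, with −log10 p of 28.1 and 26.5, and NCOA1, with 26.6 and 21.7. By the same measure the strongest H4K12bu peaks stood at the fatty acid elongase gene ELOVL6 (15.9 and 11.2), the fatty acid transporter gene SLC27A4 (30.6 and 11.1) and the acyl-CoA synthetase gene ACSL3 (18.42 and 11.02).

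In mouse, 45 of these genes were found, and regions in both replicates were present at 22 for H3K18bu, 22 for H4K12bu, 37 for H3K18ac and 41 for H4K12ac, beside 20.5%, 33.7%, 58.7% and 61.4% of protein-coding genes. The genes were not matched for length, so these numbers do not show an excess at the list. The acetyl shares also include the tied peaks, which most acetyl lists hold on only a few chromosomes. Of the oxidation genes 2 of 14 ranked higher and 1 lower in Kbu than in Kac at an exact permutation p below 0.05, and no gene of the other classes passed in either direction. Over the 45 genes these 2 and 1 stand beside 7.51% and 2.44% of all genes. Plin2, which coats lipid droplets, had the strongest H3K18bu peaks of the list by the weaker replicate (6.83 and 11.1) and also strong H3K18ac peaks (8.68 and 10.1). Elovl6 led H4K12bu (6.83 and 6.83), and Acadm, the medium-chain acyl-CoA dehydrogenase gene, was among the leading 3 genes of H3K18bu, H4K12bu and H4K12ac.

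Markers of cell types were counted by regions in both replicates within 1 kb of a start site (human) or gene end (mouse). In CCD841 cells H3K18bu was found at 5 of 11 colon epithelium, 3 of 9 fibroblast, 3 of 5 smooth muscle, 2 of 5 immune and 2 of 4 adipocyte genes, against 44% of protein-coding genes. H4K12bu was found at 3, 2, 3, 3 and 0 of them, against 35.4%, so the lists did not separate cell types in the line. In mouse, regions were found at 5 of 11 epithelial genes for H3K18bu, 4 for H4K12bu, 8 for H3K18ac and 2 for H4K12ac, against 6.84%, 16.4%, 24.4% and 27.8% of protein-coding genes. Vil1, which encodes the brush border protein villin, had one with every mark. No mark had one at any of the 9 fibroblast genes, and the smooth muscle, immune and adipocyte lists had 0 or 1 gene each. In a tissue sample, fewer cells of a type and less of a mark per cell cannot be told apart.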

How the data were processed

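Per the study's methods, the authors processed CUT&Tag reads in an ENCODE pipeline for ATAC-seq, with Bowtie2 for alignment and MACS2 for peak calling, and no control library is named. The names of the deposited lists, 1 per library, state that peaks with p below 0.01 were kept, up to 300000 per list. The submitters' processing notes name Bowtie2 2.3.1, MACS2 2.1.0, cutadapt 1.9.1 and the builds hg38 and mm10. The deposited lists give for each peak a fold enrichment over the local background (a ratio) and, as deposited, −log10 p and −log10 q values. The lists hold no read totals, so the depth of each library is unknown here. The number of overlapping reads at the top of a peak (pileup) was solved from the fold and the p, and came out whole within 0.01 for 100% of the peaks of each list. By the labels only the butyryl mice ate arabinoxylan, and the acetyl mice ate high fat and sucrose without it. The methods can be read as giving arabinoxylan to the whole group fed high fat and sucrose, and name a low fat diet for the control group.

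Overlapping peaks were merged into regions, and a region was in both replicates where the lists overlapped by at least 1 bp. Genes came from GENCODE release 44 (GRCh38) and the RefSeq table (GRCm38.p6), whose starts without strand limit mouse positions to the gene ends and RefSeq promoters. Python 3.11.15 with pandas 2.3.3 and scipy 1.17.1 did the counting, which was tested on simulated data. The permutation test is over libraries. Nothing says that human replicates were separate cultures, so their spread may be technical. The 9 genes, the wider list and the markers were chosen with earlier results of these data known. Named from the wider list are at most 3 genes per mark with the highest −log10 p in the weaker replicate. The differential analysis of the study, made on reads, was not repeated.

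The acetyl lists end in peaks tied at their lowest −log10 p, 72.1% of H3K18ac replicate 1, 52.0% of H3K18ac replicate 2, 52.8% of H4K12ac replicate 1 and 12.8% of H4K12ac replicate 2. Alternatives without these peaks, or with a pileup of at least 2, were added after the data had been seen.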

Additional observations from a re-analysis of the deposited data

How the results depend on the processing

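In CCD841 cells the H3K18bu regions in both replicates at the 9 genes stayed within 1.5 times of 55 under every setting but the window of 1 kb around start sites (8 regions), and single replicates gave 131 to 132. H4K12bu regions fell from 44 to 22 at q under 0.01 and to 6 near start sites (at 4 genes), and single replicates gave 117 to 139. The CD36 share of H3K18bu ranged from 75.8% to 95.8%, with no value near start sites, where CD36 had no region. Genes with more H3K18bu regions in every library numbered 4 at q under 0.05 and at q under 0.01 and 1 near start sites (23.4%, 25.5% and 11.1% of protein-coding genes), and 2 to 4 with a library left out, the 4 without H4K12bu replicate 2. Genes with more H4K12bu regions numbered 2, 0 and 1 under these settings (29.1%, 9.70% and 13.7%).

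In mouse, no H3K18bu or H4K12bu region was left in both replicates at q under 0.05 or 0.01, so that 0 genes had one. H3K18ac regions numbered 10 at q under 0.05 and 2 at q under 0.01 (at 2 genes), and H4K12ac regions 2 (at 2 genes) and 1 (at 1 gene). With the lists shortened to equal length by peak strength the numbers were 8 for H4K12bu, 15 for H3K18ac and 2 for H4K12ac (at 2 genes). In gene bodies alone H4K12bu had 9. Near gene ends there were 2 regions for H3K18bu (2 genes), 3 for H4K12bu (2 genes), 4 for H3K18ac (4 genes) and 4 for H4K12ac (3 genes). With a pileup of at least 2 there were 2 H3K18bu regions at 2 genes and 4 H4K12bu regions at 4 genes. Single replicates gave 54 to 70 regions for H3K18bu, 52 to 84 for H4K12bu, 187 to 253 for H3K18ac and 96 to 187 for H4K12ac. Without the tied peaks of the acetyl lists H3K18ac regions fell from 43 to 37 and its genes from 7 to 6, with Cd36 lost. No rank difference by the strongest peak changed its direction or call, while genes higher in Kbu fell from 7.51% to 1.99% of all genes and those lower from 2.44% to 1.54%.

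In the comparison of ranks, 3 genes were lower in Kbu at q under 0.05 (5.66% of all genes), all 3 without such a peak in any Kbu library, and 0 when ranked by fold (2.46%). The Kbu ranks of these 3 genes at q under 0.05 are the level of genes without a peak, so no result is drawn from them. By regions per kb 2 genes, Ppard and Cpt1a, were higher (12.2%), and 0 without the tied acetyl peaks (2.98%). At q under 0.05, where at most 1 Kbu library had a peak at any of these genes, the values turned for Ppara (−35.9), Ppard (−8.28), Cpt1a (−27.1), Angptl4 (−7.04), Acsl1 (−19.5) and Fabp1 (6.77), by regions per kb for Pparg (13.8), Ppargc1a (2.31) and Cd36 (8.33), by the same without tied peaks for Pparg (1.62), Acsl1 (−5.58) and Cd36 (1.96), near gene ends for Ppard (−5.35) and Angptl4 (−26.8), where 1 of the 8 libraries had a peak at Cd36 and Pparg was at −24.1 (exact permutation p = 0.02857), and with a pileup of at least 2 for Cpt1a (−4.17) and Angptl4 (−8.94). Near gene ends 2.34% of all genes were lower in Kbu and 26.4% higher by the same test. Pparg had a peak there in 3 of the 4 Kbu libraries, and the other stood at the level of genes without a peak. Cd36 stood at −2.39 near gene ends and was not called there. The cause of these changes was not tested. With a library left out, 0 to 1 gene was lower in Kbu, Fabp1 without H4K12ac replicate 2 (3.93% of all genes) and otherwise Cd36 (1.65% to 1.78%). Fabp1 had no peak in any Kbu library, so its Kbu ranks are the level of genes without a peak and no result is drawn from its call. Over the runs with a library left out, the difference ranged from −34.8 to −17.8 for Cd36, −3.57 to 1.12 for Ppargc1a, −1.02 to 8.09 for Cpt1a, −6.64 to 14.2 for Angptl4 and −1.02 to 14 for Acsl1. With the replicate block, 0 genes were lower, and Cd36 had an exact permutation p of 0.05556, the smallest that 36 arrangements allow, and no other call changed. Same-numbered libraries showed no shared deviation (correlations of −0.0168 to 0.0136 in mouse and −0.00842 in CCD841). Most mouse butyryl peaks rest on 1 read, so these correlations cannot decide whether same-numbered libraries share an animal.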

Other observations

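The acetyl lists are uneven along the genome. Their peaks tied at the lowest −log10 p lie on 19 chromosomes in H3K18ac replicate 1, where they number 216068, on 6 in H3K18ac replicate 2 (155849), on 5 in H4K12ac replicate 1 (158414) and on 1 in H4K12ac replicate 2 (38445). Of the 9 mouse genes' chromosomes, only H3K18ac replicate 1 holds such peaks, 61808 in all. The 3 other acetyl libraries therefore list no tied peaks near any of these genes, so that counts of regions per library at them are not on the same footing as those of H3K18ac replicate 1.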
